A study of Mus musculus with 16 samples.

Results

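The insulin-like growth factor (IGF) system of the mouse testis was examined through 10 genes, chosen by symbol from the 35983 genes of the expression table. They encode the ligands IGF1 and IGF2 (*Igf1*, *Igf2*), the receptors *Igf1r* and *Insr*, and 6 binding proteins (*Igfbp2* to *Igfbp7*). Each symbol was found once in the table, and all 10 genes passed the filter on low values in each comparison below.

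The IGFs are small secreted hormones related to insulin that promote growth and survival of cells. Both act mainly through the IGF1 receptor, a tyrosine kinase, and in part through the closely related insulin receptor. The binding proteins hold the ligands in tissue and blood, protect them from degradation and release them when proteases cut the binding protein, so that they can limit or prolong signalling. In the mouse testis, insulin and IGF receptors are known to drive Sertoli cell proliferation and to carry part of the action of FSH, and IGF1 supports Leydig cell maturation.

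mRNA was sequenced from 16 whole testes samples in 4 groups of 4, all of mixed 129Sv and C57Bl/6J background. *Dhh-Cre* mutants at postnatal day 3 (P3) were *Lrh1* flox/flox; *Dhh-Cre*, with deletion in Sertoli cells from the Cre driven by the *Dhh* gene, and their P3 controls were *Lrh1* flox/flox with no Cre. *Nanos3-Cre* mutants at P1 were *Lrh1* flox/-; *Nanos3-Cre*, with deletion in germ cells, and their P1 controls were *Lrh1* flox/- with no Cre. All P1 animals therefore carried 1 null *Lrh1* allele in every cell, whereas no P3 animal did.

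Each value is a group mean, made by the authors, of FPKM, a fragment count scaled to gene length and to sequencing depth. The table has 1 mean per group and no value per sample, so none of the values below has an SD, no test across samples was possible and the depth of each library is unknown from them. A difference is given as the ratio of 2 means and as its log2 after 0.1 FPKM was added to each mean. A gene was called past the fold when that ratio was above 1.5 or below its inverse, among genes whose 2 means averaged 0.5 FPKM or more. The share of all such genes past the fold is given beside the members' counts. For no pair of levels, near or far apart, can it be said whether they differ beyond the spread between animals.

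The targeted gene had low levels in whole testes. *Nr5a2*, the gene of LRH1, averaged 0.609 FPKM in *Dhh-Cre* P3 testes, against 1.15 FPKM in P3 controls, and 0.491 FPKM in *Nanos3-Cre* P1 testes, against 0.764 FPKM in P1 controls. These values cover the whole gene and all cells of the testis. *Nr5a1*, the gene of the related receptor SF1, averaged 36.8 FPKM in *Dhh-Cre* P3 testes, against 65.3 FPKM in P3 controls, and 68.8 FPKM in *Nanos3-Cre* P1 testes, against 58.7 FPKM in P1 controls. Defining genes of the testis were present in every group, with none of 8 Sertoli cell, 8 germ cell and 6 Leydig cell genes at 0.

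Per length of gene, *Igfbp5* was the most abundant of the 10 genes in all 4 groups. Its mean was 264 FPKM in *Dhh-Cre* P3 testes, against 147 FPKM in P3 controls, and 211 FPKM in *Nanos3-Cre* P1 testes, against 202 FPKM in P1 controls. *Igf1* came second in each group, and *Insr* had the lowest level, between 4.38 and 6.38 FPKM. In P3 controls the order after *Igfbp5* was *Igf1* (84.0 FPKM), *Igfbp4* (65.0 FPKM), *Igfbp6* (60.6 FPKM), *Igfbp7* (56.4 FPKM), *Igfbp3* (38.4 FPKM), *Igfbp2* (28.0 FPKM), *Igf1r* (16.3 FPKM), *Igf2* (9.68 FPKM) and *Insr* (6.38 FPKM). Ligand and binding protein mRNAs were thus mostly well above those of the receptors, *Igf2* excepted. The place of *Igf2* in this order is uncertain, because most of its exonic bases are shared with another gene, as given below.

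**Figure D1:**
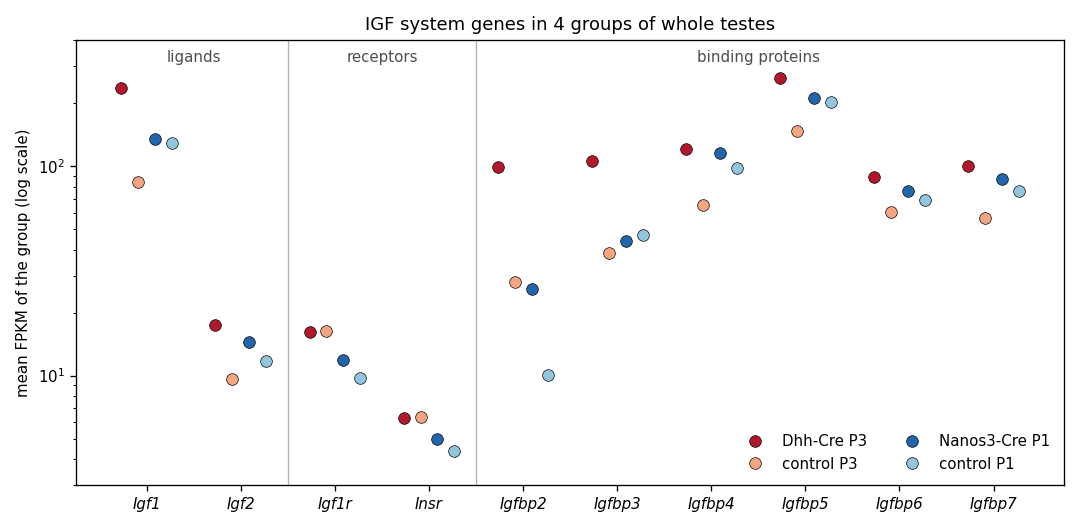
Mean FPKM of the 10 IGF system genes (log axis) in *Dhh-Cre* P3, control P3, *Nanos3-Cre* P1 and control P1 testes. Each point is the authors' mean of 4 samples, without an error because no value per sample was used. *Igfbp5* is highest and *Insr* lowest in each group, and the *Igfbp2* point for *Dhh-Cre* P3 lies at 98.7 FPKM, against 28.0 FPKM for P3 controls.

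At P3 the comparison asks how Sertoli cell deletion of *Lrh1* altered the testis. Of the 10 genes, 7 had a mean more than 1.5-fold higher in *Dhh-Cre* mutants than in controls and 0 had a lower one past that fold. Among all 16923 genes kept, 12.4% were higher past the fold and 8.33% were lower. The 7 genes were both ligands and 5 of the 6 binding proteins, whereas neither receptor was among them. The median log2 ratio of the 10 genes was 0.85, beside 0.00 for all genes kept. Past a 2-fold difference were *Igf1*, *Igfbp2* and *Igfbp3*, 3 of the 10 genes, beside 4.75% of all genes higher and 3.58% lower past that fold.

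*Igf1*, the main growth-promoting ligand after birth, averaged 236 FPKM in *Dhh-Cre* P3 testes, against 84.0 FPKM in P3 controls. This is a ratio of 2.82 (log2 ratio 1.49), and the gene stood at rank 205 of 16923 by ratio. In order of level among all 35983 genes *Igf1* stood at rank 96 in *Dhh-Cre* mutants, against 331 in controls. In GRCm38, *Igf1* is on the plus strand of chromosome 10 (87858265 to 87937042), and none of its exonic bases is shared with another annotated gene.

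*Igf2*, the ligand best known for fetal growth, averaged 17.5 FPKM in *Dhh-Cre* P3 testes, against 9.68 FPKM in P3 controls, a ratio of 1.81 (log2 ratio 0.85). Its level needs care. *Igf2* is expressed from the paternal chromosome and lies 72.6 kb from *H19*, a noncoding gene expressed from the maternal one. *H19* was about as far apart between the groups, with 1885 FPKM in *Dhh-Cre* P3 testes, against 1143 FPKM in P3 controls (log2 ratio 0.72), a level far above that of *Igf2*. Of the exonic bases of *Igf2*, 62.8% are also exonic in *Gm49394*, an overlapping gene on the same strand, which the table lists at 0.038 FPKM in *Dhh-Cre* P3 testes and 0.05 FPKM in P3 controls. The sources used here do not give how reads that cover both genes were assigned. The level of *Igf2* against other genes is therefore uncertain. The same rule would hold in each group, but whether the shared bases held the same part of *Igf2* reads in each group is not known. No other member shares exonic bases with a gene of its own strand.

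The receptors had nearly equal means in the P3 groups. *Igf1r*, the receptor of both IGFs, averaged 16.2 FPKM in *Dhh-Cre* mutants, against 16.3 FPKM in controls (ratio 0.999). *Insr*, the insulin receptor, averaged 6.30 FPKM in mutants, against 6.38 FPKM in controls (log2 ratio -0.02). *Igf2r*, which takes up IGF2 for degradation and is not one of the 10 genes, averaged 16.1 FPKM in mutants and 16.1 FPKM in controls. The 3 main receptors of the system thus had ratios close to 1 between means that carry no error, beside the ratios of 1.81 and 2.82 for the ligands.

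All 6 binding protein genes had higher means in *Dhh-Cre* P3 testes, though not to the same degree. *Igfbp2*, a binding protein abundant in fetal tissues, had the highest ratio of the 10 genes, with 98.7 FPKM in mutants, against 28.0 FPKM in controls. The ratio was 3.53 (log2 ratio 1.82), rank 84 of 16923. *Igfbp3*, which carries most IGF in the circulation of adults, averaged 107 FPKM in mutants, against 38.4 FPKM in controls, a ratio of 2.78 (log2 ratio 1.47). These 2 genes stood apart from the other binding proteins, whose ratios lay between 1.47 and 1.86.

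*Igfbp4*, known mainly as an inhibitor of IGF action, averaged 121 FPKM in *Dhh-Cre* P3 testes, against 65.0 FPKM in P3 controls (ratio 1.86). *Igfbp5*, which also binds extracellular matrix, averaged 264 FPKM in mutants, against 147 FPKM in controls (ratio 1.79). *Igfbp7*, a relative that binds IGFs weakly, averaged 101 FPKM in mutants, against 56.4 FPKM in controls (ratio 1.78). Only *Igfbp6*, which prefers IGF2, stayed within the fold, with 89.1 FPKM in mutants, against 60.6 FPKM in controls (ratio 1.47). It lay just inside the limit, so the count of 7 depends on where the fold is set.

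**Figure D2:**
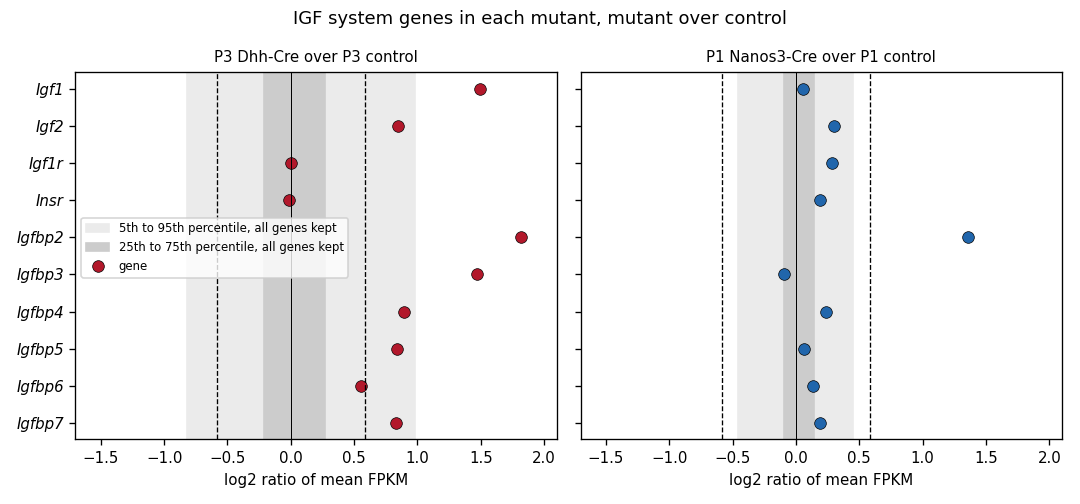
Log2 ratio of mean FPKM for the 10 genes, *Dhh-Cre* over control at P3 (left panel) and *Nanos3-Cre* over control at P1 (right panel). Shaded bands give the middle of all genes kept (25th to 75th and 5th to 95th percentile), and dashed lines a ratio of 1.5 in each direction. At P3 the points of 7 genes lie past the dashed line and those of *Igf1r* and *Insr* at 0, whereas at P1 only *Igfbp2* (1.36) lies past it.

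Summed over the 6 genes, binding protein mRNA was 779 FPKM in *Dhh-Cre* P3 testes, against 396 FPKM in P3 controls, a ratio of 1.97. The make-up of the sum differed as well. *Igfbp2* made up 12.7% of it in mutants, against 7.07% in controls, and *Igfbp3* 13.7% in mutants, against 9.70% in controls. *Igfbp5* remained the main component with 33.9% in mutants, against 37.2% in controls. Because *Igf1* had a larger ratio than the sum, there were 3.30 FPKM of binding protein mRNA for each FPKM of *Igf1* in mutants, against 4.71 in controls. For each FPKM of *Igf1r* there were 14.6 FPKM of *Igf1* in mutants, against 5.16 in controls. The P1 groups lay nearer to the P3 mutants in this last value, with 13.2 in P1 controls and 11.3 in *Nanos3-Cre* P1 testes. Binding protein mRNA for each FPKM of *Igf1* was 3.87 FPKM in P1 controls and 4.15 FPKM in *Nanos3-Cre* P1 testes.

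**Figure D3:**
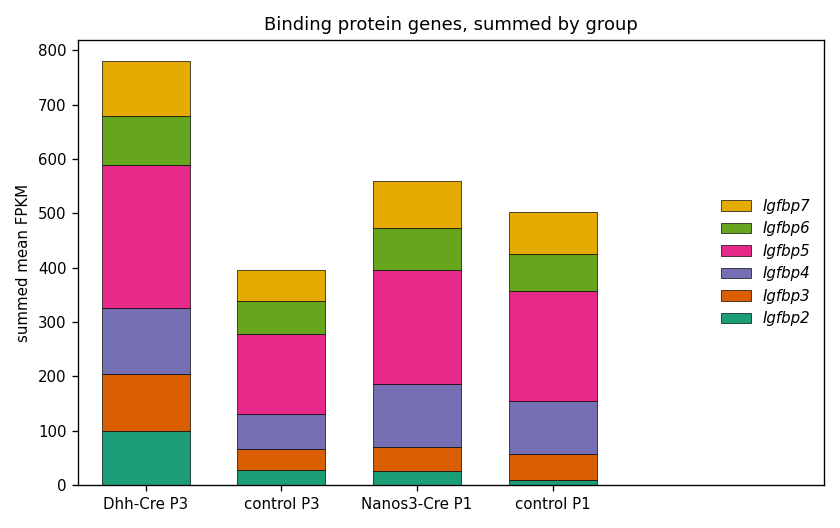
Mean FPKM of the 6 binding protein genes stacked by group (*Dhh-Cre* P3, control P3, *Nanos3-Cre* P1, control P1), each segment being the authors' mean of 4 samples. The stacks reach 779, 396, 560 and 502 FPKM, and the *Igfbp2* segment at the base is 98.7 FPKM in *Dhh-Cre* P3 testes, against 10.1 FPKM in P1 controls.

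Some binding protein genes lie in pairs that point towards each other. *Igfbp2* (chromosome 1, 72824503 to 72852474, plus strand) and *Igfbp5* (72857932 to 72874884, minus strand) are 5.46 kb apart with 0 coding genes between them. Although neighbours, their ratios at P3 were 3.53 and 1.79. *Igfbp3* (chromosome 11, 7206086 to 7213923, minus strand) lies 3.54 kb from *Igfbp1*, which encodes a binding protein made mainly in liver. *Igfbp1* averaged 0.107 FPKM in *Dhh-Cre* P3 testes and 0.126 FPKM in P3 controls, far below *Igfbp3*. *Igfbp4* (99041244 to 99054392) is on the plus strand of chromosome 11, *Igfbp6* (102144362 to 102149511) on that of chromosome 15 and *Igfbp7* (77349240 to 77408041) on the minus strand of chromosome 5.

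The promoters of 3 binding protein genes that were higher in *Dhh-Cre* mutants are printed, since LRH1 is a DNA-binding receptor and the windows show which letters stand before each gene. Each sequence is the 250 bases before the gene's start in RefSeq (GRCm38.p6), written 5′ to 3′ in the direction of the gene, and none of the 3 windows overlaps an annotated exon. The *Igfbp2* window is chr1:72824230-72824479 (plus strand), the *Igfbp3* window chr11:7213924-7214173 (minus strand) and the *Igfbp4* window chr11:99040994-99041243 (plus strand). Capitals mark a GC box (GGGCGG, bound by the SP1 family) in *Igfbp2* and a TATA box (TATAAA) in *Igfbp4*. The *Igfbp3* window has neither in these exact letters, the only ones searched for these boxes. Variants were not marked, such as the tatata near the end of the *Igfbp3* window.
Igfbp2: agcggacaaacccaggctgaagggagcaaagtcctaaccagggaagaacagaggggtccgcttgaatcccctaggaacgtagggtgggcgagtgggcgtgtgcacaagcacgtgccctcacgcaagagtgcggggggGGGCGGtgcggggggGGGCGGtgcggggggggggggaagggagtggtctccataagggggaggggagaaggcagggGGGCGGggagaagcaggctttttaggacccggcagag
Igfbp3: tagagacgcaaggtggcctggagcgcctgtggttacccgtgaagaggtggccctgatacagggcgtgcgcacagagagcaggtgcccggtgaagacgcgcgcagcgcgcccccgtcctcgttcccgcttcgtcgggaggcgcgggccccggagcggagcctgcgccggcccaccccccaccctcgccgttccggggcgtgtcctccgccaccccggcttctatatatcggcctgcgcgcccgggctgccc
Igfbp4: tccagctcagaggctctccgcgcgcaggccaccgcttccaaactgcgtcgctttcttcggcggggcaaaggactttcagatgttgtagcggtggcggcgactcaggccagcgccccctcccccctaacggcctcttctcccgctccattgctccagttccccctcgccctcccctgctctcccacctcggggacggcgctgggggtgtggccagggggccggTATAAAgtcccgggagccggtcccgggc

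In these windows the 3 GC boxes of *Igfbp2* begin 113, 98 and 37 bases before the start, and the TATA box of *Igfbp4* begins 28 bases before it. RefSeq windows were found for 9 of the 10 genes, 13 in all since some genes have several starts, and *Insr* had none. The site of LRH1 and SF1 was searched as CAAGGNCA on both strands, and so was its core AAGGTCA, which overlaps the longer site. The longer site was found in 0 of the 13 windows, beside 5.53% of 32851 windows of all genes. The core was found in 1, that of *Igf1r*, 86 bases before the RefSeq start on the opposite strand, beside 4.08% of all windows. That window ends at 67952256 on chromosome 7, upstream of the GENCODE start of *Igf1r* at 67952827. GC boxes were found in 5 of the 13 windows (4 genes) and TATA boxes in 2, beside 32.7% and 12.4% of all windows. Beside that of *Igfbp4*, the other TATA match was in *Igfbp6*, 148 bases before the RefSeq start and on the opposite strand. The *Igfbp6* window ends at 102144185 on chromosome 15, upstream of the GENCODE start of the gene at 102144362. Unlike the printed windows, those of *Igf1* and *Igfbp5*, some of *Igf2* and that of another *Igfbp2* start overlap annotated exons. The matches describe letters near the RefSeq start only.

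In whole testes, fewer cells of a type and less RNA per cell cannot be told apart, so the marker genes of testis cell types stand beside the P3 result. Sertoli cell genes had lower means in *Dhh-Cre* mutants, with 7 of 8 lower past the fold and a summed level of 477 FPKM in mutants, against 1243 FPKM in controls. Interstitial mesenchyme genes had higher ones, with 6 of 8 past the fold, a summed level of 2296 FPKM in mutants, against 1058 FPKM in controls, and log2 ratios between 0.27 and 1.64. The log2 ratios of *Igf1* (1.49) and *Igfbp3* (1.47) lay inside that range. So did those of *Igf2*, *Igfbp4*, *Igfbp5*, *Igfbp6* and *Igfbp7*, which were between 0.55 and 0.89. That of *Igfbp2* (1.82) lay above the range and those of *Igf1r* and *Insr* below it.

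Genes of several other cell types had higher means too. Mesothelium genes were past the fold in 4 of 4 cases (93.4 FPKM summed in mutants, against 35.7 FPKM in controls), macrophage genes in 5 of 6 (97.0 against 44.9 FPKM) and endothelial genes in 4 of 6 (64.4 against 43.4 FPKM). Of 6 Leydig cell genes 3 were higher and 1 was lower past the fold, and their sum was 545 FPKM in mutants, against 333 FPKM in controls. Of 5 peritubular myoid genes 2 were higher, with a sum of 297 FPKM in mutants, against 221 FPKM in controls. Of 5 red cell genes 1 was lower, and no germ cell or adrenal cortex gene was past the fold. The log2 ratios of mesothelium genes lay between 1.20 and 1.62, a range that also held *Igf1* and *Igfbp3*. Those of macrophage genes lay between 0.43 and 1.34 and those of endothelial genes between 0.42 and 1.11. Both of these ranges held *Igf2*, *Igfbp4*, *Igfbp5*, *Igfbp6* and *Igfbp7*. No marker of the lists was at 0 in either group. The part of cell composition in the levels of the IGF system genes was not tested.

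**Figure D4:**
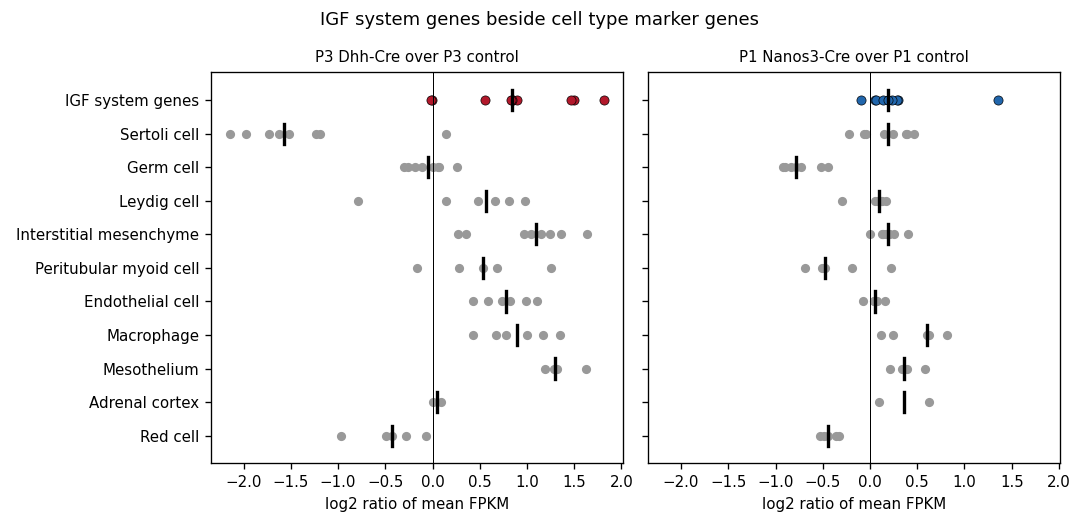
Log2 ratio of mean FPKM for the 10 IGF system genes (top row, coloured) and for marker genes of cell types (grey), *Dhh-Cre* over control at P3 (left panel) and *Nanos3-Cre* over control at P1 (right panel). Each point is a gene kept by the filter and each black bar the median of its row. At P3 the IGF system median is 0.85, beside 1.09 for interstitial mesenchyme and -1.57 for Sertoli cell genes. Medians of other lists are 1.30 for mesothelium, 0.89 for macrophage and 0.78 for endothelial genes.

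By the pattern over the 4 group means, the genes most like *Igf1* were *Pi15*, *Mfap4*, *Osr1*, *Ptn* and *Mfap2*. Likeness was the distance between log2 profiles, each less its own mean, over the 5093 genes averaging 10 FPKM or more in the 4 groups, and these 5 lay at distances between 0.07 and 0.20. *Mfap4* and *Mfap2* encode microfibril-associated proteins and *Ptn* the growth factor pleiotrophin. *Mfap4*, for example, averaged 712 FPKM in *Dhh-Cre* P3 testes, against 259 FPKM in P3 controls, and 443 FPKM in *Nanos3-Cre* P1 testes, against 423 FPKM in P1 controls. The genes most like *Igfbp3* were *Col9a2*, *Lox*, *Sfrp1*, *Id2* and *Dcn*, at distances between 0.16 and 0.26. *Lox* encodes a collagen crosslinking enzyme, *Dcn* the proteoglycan decorin and *Col9a2* a collagen chain, and *Dcn* is also one of the interstitial mesenchyme markers above. With only 4 means such likeness is a description.

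The wider pathway was read from 7 lists of 41 genes, of which 35 passed the filter at P3. Of these, 8 were higher and 3 were lower past the fold in *Dhh-Cre* mutants, with a median log2 ratio of 0.05, beside the same 12.4% and 8.33% of all genes. The insulin genes and the other binding proteins had little mRNA. *Ins2* was at 0.142 FPKM in mutants and 0.335 FPKM in controls, *Ins1* was listed at 0 in both P3 groups, and *Igfbp1*, *Igfals* and *Igfbpl1* together summed to 0.463 FPKM in mutants and 0.464 FPKM in controls. *Insrr*, an insulin receptor relative, averaged 1.31 FPKM in mutants, against 0.699 FPKM in controls.

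Proteases that cut the binding proteins, and inhibitors of these proteases, differed in both directions. *Pappa2*, a metalloprotease that cuts IGFBP3 and IGFBP5, averaged 2.66 FPKM in *Dhh-Cre* P3 testes, against 1.14 FPKM in P3 controls (log2 ratio 1.15). *Adam12*, another metalloprotease with these targets, averaged 19.6 FPKM in mutants, against 12.4 FPKM in controls (log2 ratio 0.66). *Stc1*, which encodes the protease inhibitor stanniocalcin, was lower, with 5.95 FPKM in mutants, against 13.4 FPKM in controls (log2 ratio -1.15). *Pappa*, the protease of IGFBP4, stayed within the fold at 5.84 FPKM in mutants and 8.65 FPKM in controls, as did *Htra1*, the most abundant gene of the list, at 22.3 FPKM in mutants and 21.5 FPKM in controls, and *Stc2*, a relative of *Stc1*, at 16.3 FPKM in mutants and 12.6 FPKM in controls.

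Behind the receptors, *Irs4*, a docking protein for insulin and IGF receptors, had the highest ratio of the lists. Its mean was 3.70 FPKM in *Dhh-Cre* P3 testes, against 1.22 FPKM in P3 controls (log2 ratio 1.52). *Pik3r1*, the main regulatory subunit of PI3 kinase, averaged 27.7 FPKM in mutants, against 11.4 FPKM in controls (log2 ratio 1.27), and was the only 1 of 12 genes of the PI3K-AKT arm past the fold. *Akt1*, the most abundant gene of that arm, averaged 59.6 FPKM in mutants and 46.9 FPKM in controls. Adaptors that dampen receptor signalling went in opposite directions. *Grb10* averaged 92.03 FPKM in mutants, against 46.4 FPKM in controls (log2 ratio 0.99), and *Grb14* 2.24 FPKM in mutants, against 4.10 FPKM in controls (log2 ratio -0.85).

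In the growth hormone axis, which drives *Igf1* transcription in liver, *Ghr* and *Socs2* also differed in opposite directions. *Ghr*, the growth hormone receptor gene, averaged 12.2 FPKM in *Dhh-Cre* P3 testes, against 6.76 FPKM in P3 controls (log2 ratio 0.84). *Socs2*, a feedback inhibitor of this receptor, averaged 17.6 FPKM in mutants, against 34.7 FPKM in controls (log2 ratio -0.97). *Igf2bp2*, which encodes an RNA-binding protein that binds *Igf2* mRNA, averaged 9.55 FPKM in mutants, against 6.28 FPKM in controls (log2 ratio 0.60), just past the fold. The other genes of its family had lower means, both within the fold. *Igf2bp1* averaged 4.02 FPKM in mutants and 6.02 FPKM in controls (log2 ratio -0.57, just inside the limit), and *Igf2bp3* 4.63 FPKM in mutants and 6.14 FPKM in controls (log2 ratio -0.40).

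**Figure D5:**
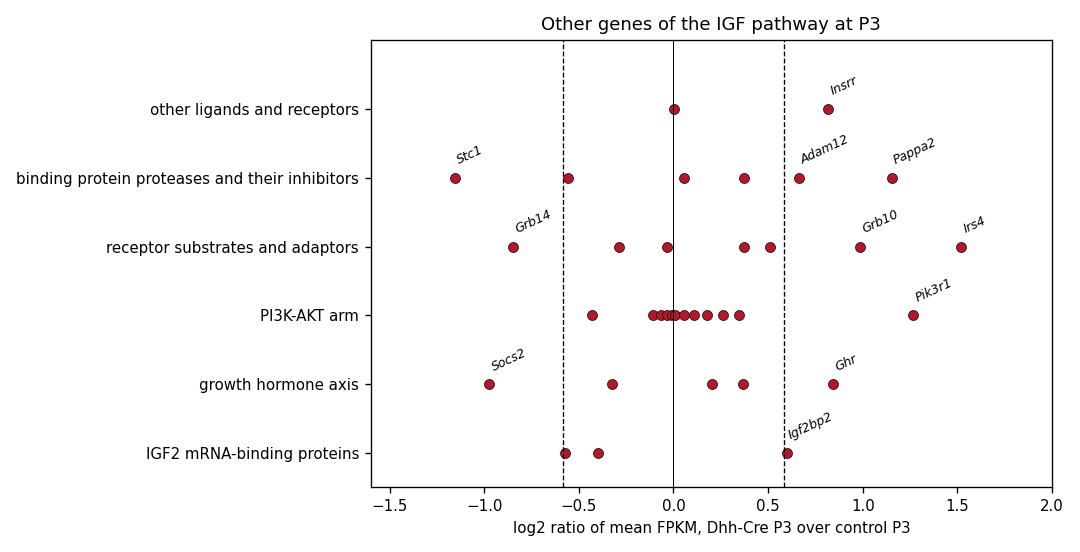
Log2 ratio of mean FPKM, *Dhh-Cre* P3 over control P3, for the genes of the wider IGF pathway that passed the filter, by list. Dashed lines mark a ratio of 1.5 in each direction and genes past them are named. *Irs4* (1.52) is farthest to the right and *Stc1* (-1.15) farthest to the left, and 11 of the 12 PI3K-AKT points lie inside the lines.

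At P1 the comparison asks how loss of *Lrh1* from germ cells altered the testis. Of the 10 genes, 1 was higher past the fold in *Nanos3-Cre* mutants and 0 were lower, beside 3.17% and 3.46% of the 16121 genes kept. That gene was *Igfbp2*, with 26.1 FPKM in *Nanos3-Cre* P1 testes, against 10.1 FPKM in P1 controls, a ratio of 2.58 (log2 ratio 1.36) and rank 101 of 16121. Past a 2-fold difference *Igfbp2* was again the 1 gene of the 10, beside 1.15% of all genes higher and 1.39% lower. Where the mean was 5 FPKM or more, 0.663% were higher past the fold. No test across samples stands behind this ratio, and a single mean per group does not show how many of the 4 mutant testes had the higher level.

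The other 9 genes stayed within the fold at P1, with ratios between 0.936 and 1.23. *Igf1* averaged 135 FPKM in *Nanos3-Cre* P1 testes, against 130 FPKM in P1 controls, and *Igfbp3* 43.9 FPKM in mutants, against 46.9 FPKM in controls. *Igf2* was at 14.5 FPKM in mutants and 11.7 FPKM in controls, *Igf1r* at 11.9 FPKM in mutants and 9.79 FPKM in controls and *Insr* at 5.00 FPKM in mutants and 4.38 FPKM in controls. For *Igfbp4* the means were 116 FPKM in mutants and 98.2 FPKM in controls, for *Igfbp6* 76.1 FPKM in mutants and 69.2 FPKM in controls, and for *Igfbp7* 87.1 FPKM in mutants and 76.4 FPKM in controls. In all, 9 of the 10 genes had a ratio above 1, with a median log2 ratio of 0.19, beside 0.02 for all genes kept. Of the 35 genes of the wider pathway kept at P1, only *Pappa2* was past the fold, with 1.04 FPKM in mutants, against 0.624 FPKM in controls.

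Marker genes also differed at P1. Of 7 germ cell genes kept, 5 were lower past the fold in *Nanos3-Cre* mutants, with a summed level over all 8 of 16.1 FPKM in mutants, against 28.2 FPKM in controls. Macrophage genes were higher in 4 of 6 cases (70.1 FPKM summed in mutants, against 46.4 FPKM in controls) and mesothelium genes in 1 of 4 (48.6 against 37.3 FPKM). Of the other lists, 1 of 5 peritubular myoid genes was lower and 1 of 2 adrenal cortex genes was higher past the fold, and no Sertoli cell or interstitial mesenchyme gene was past it. Their part in the *Igfbp2* difference was not tested.

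*Igfbp2* was the gene of the family that varied most over the 4 groups. It had its lowest mean in P1 controls (10.1 FPKM), similar means in *Nanos3-Cre* P1 testes (26.1 FPKM) and P3 controls (28.0 FPKM), and its highest in *Dhh-Cre* P3 testes (98.7 FPKM). As a share of the binding protein sum it was 12.7% in *Dhh-Cre* P3 testes, 7.07% in P3 controls, 4.66% in *Nanos3-Cre* P1 testes and 2.01% in P1 controls. The ratios of mutant over control were 3.53 at P3 and 2.58 at P1, and whether they differ was not tested.

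Between the control groups, age, *Lrh1* genotype and RNA input cannot be told apart. P3 controls were flox/flox with 400 ng of total RNA in all 4 samples, and P1 controls were flox/- with 500 ng in 3 samples and 400 ng in 1. Of the 10 genes, *Igf1r* and *Igfbp2* were higher past the fold in P3 controls and *Igf1* and *Igfbp4* were lower, 2 in each direction, beside 18.5% of all genes higher and 10.1% lower. *Igf1r* averaged 16.3 FPKM in P3 controls, against 9.79 FPKM in P1 controls (log2 ratio 0.73), and *Igf1* 84.0 FPKM in P3 controls, against 130 FPKM in P1 controls (log2 ratio -0.63). *Insr* had a ratio of 1.45, just within the fold. Past a 2-fold difference was *Igfbp2* alone of the 10 genes, beside 6.36% of all genes higher and 3.89% lower. All genes kept had a median log2 ratio of 0.15 in this comparison. Relative to that median *Igfbp2* was at 1.31, *Igf1* at -0.77, *Igfbp4* at -0.74, *Igfbp5* at -0.60 and *Igf1r* at 0.58, so that *Igf1r* no longer passed the fold and *Igfbp5* did. When the groups were scaled to the same total, *Igf1* (-0.38) and *Igfbp4* (-0.35) no longer passed, while *Igf1r* (0.97), *Insr* (0.77) and *Igfbp2* (1.70) did. With equal totals, 33.8% of all genes were higher and 5.71% lower past the fold, and their median log2 ratio was 0.39. Less the median, 12.3% were higher and 14.5% lower. Only *Igfbp2* was past the fold under each of these scalings. Of all genes past the fold, 64.7% were higher as deposited, 85.5% with equal totals and 45.9% less the median. Leydig cell genes were lower in P3 controls in 4 of 6 cases (333 FPKM summed in P3 controls, against 858 FPKM in P1 controls), germ cell genes were higher in 8 of 8 (103 against 28.2 FPKM) and Sertoli cell genes in 4 of 8 (1243 against 1044 FPKM). Red cell genes were lower in 4 of 5 cases (370 FPKM summed in P3 controls, against 629 FPKM in P1 controls) and endothelial genes in 2 of 6 (43.4 against 67.4 FPKM). In the other lists at most 1 gene was past the fold in either direction. The part of these cell types in the differences was not tested.

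The P3 controls enter both this comparison and that of the *Dhh-Cre* mutants, so the values of the groups stand side by side. *Igf1* was at 236 FPKM in *Dhh-Cre* P3 testes, 84.0 FPKM in P3 controls and 130 FPKM in P1 controls. *Igfbp3* was at 107 FPKM in *Dhh-Cre* P3 testes, 38.4 FPKM in P3 controls and 46.9 FPKM in P1 controls. For both genes the *Dhh-Cre* P3 mean was above that of each control group. *Igfbp4*, *Igfbp5*, *Igfbp6* and *Igfbp7* likewise had their highest mean in *Dhh-Cre* P3 testes and their lowest in P3 controls.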

How the data were processed

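mRNA from whole testes of 16 samples in 4 labelled groups was sequenced from stranded libraries, made from 400 or 500 ng of total RNA. All P3 samples and 1 sample of each P1 group had the lower input. The authors used Trim Galore 0.6.0 with cutadapt 1.18 for trimming and FastQC 0.11.8 for read quality, mapped them with STAR 2.7.2a to GRCm38 (mm10), estimated strand-specific gene expression with RSubread on the GENCODE annotation, and deposited FPKM as a mean per group for 35983 genes. The sources used here do not give how library totals and gene lengths were set. Deposited tables of the authors' own comparisons (fold changes, adjusted p-values and mean counts of genes they called) were not used.

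Log2 ratios of means were taken after adding 0.1 FPKM, over genes with a mean of both groups of at least 0.5 FPKM, and read at a fold of 1.5. A fit with limma was planned for values per sample and was not run. Alternatives were a pseudocount of 0 or 1 FPKM, a minimum of 0 or 5 FPKM, other scalings and a fold of 2. The members and lists were chosen with earlier results of these data known. Named genes were the 10 members, pathway genes past the fold or highest in their list, and the 5 nearest profiles of *Igf1* and *Igfbp3*. *Ins1*, *Ins2*, *Igfals*, *Pappa*, *Stc2*, *Igf2bp1* and *Igf2bp3* were named in addition, after their values were seen. *Igfbp1*, the neighbour of *Igfbp3*, was also named outside this rule. Positions come from GENCODE M21 on GRCm38, which holds 99.7% of the table's gene IDs. Computation used Python 3.11.15, numpy 2.4.6, pandas 2.3.3 and matplotlib 3.10.9 and was tested on simulated data.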

Additional observations from a re-analysis of the deposited data

How the results depend on the processing

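At a fold of 2 in place of 1.5, 3 of the 10 genes were past the fold at P3 (*Igf1*, *Igfbp2* and *Igfbp3*, in place of 7) and 1 between the controls (*Igfbp2*, in place of 4). At P1 the count remained 1, *Igfbp2*, under all alternatives run. With no pseudocount, 1 FPKM, no filter, a minimum of 5 FPKM, equal totals or the median removed, the same 7 genes were past the fold at P3. At a minimum of 5 FPKM, *Insr* was not kept at P1. Counts over all genes depended on the pseudocount and the filter. At P3, 2106 genes were higher and 1410 lower past the fold, and these counts became 1172 and 933 with a pseudocount of 1 FPKM, 4710 and 3315 with no filter, and 601 and 587 at a minimum of 5 FPKM. At P1, 511 and 557 genes became 194 and 237, 2410 and 2810, and 53 and 40 under the same alternatives, and between the controls 3050 and 1664 became 1813 and 1096, 6149 and 3945, and 1032 and 710. A fold of 2 left 803 and 605 genes at P3, 186 and 224 at P1, and 1050 and 643 between the controls. Equal totals gave 5596 and 946 there. In the comparison of the controls, equal totals gave 3 higher genes of the 10 and 0 lower, beside 33.8% and 5.71% of all genes. Of all calls, 85.5% were then higher, against 64.7% as deposited. Removing the median gave 1 higher gene of the 10 and 3 lower, beside 12.3% and 14.5% of all genes, with 45.9% of calls higher. Equal totals moved the median of all genes there to 0.39. Under none of these alternatives did a called ratio change its direction. No paired analysis was possible because the table holds 1 mean per group, and for the same reason no replicate could be left out.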

Other observations

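*Igfbp2* was set beside the other genes by the same distance, which is not scaled to how widely a gene varies. A gene with a wide range, such as *Igfbp2*, therefore tends to lie farther from others. In a search added after its values were seen, the 5 genes with the nearest profile over the 4 means were *Fmo2*, *Postn*, *Col6a6*, *Cdo1* and *Gm27544*, at distances between 0.62 and 0.90, farther than the nearest genes of *Igf1* and *Igfbp3*. *Postn*, the gene of the matrix protein periostin, averaged 43.8 FPKM in *Dhh-Cre* P3 testes, against 18.98 FPKM in P3 controls, and 14.9 FPKM in *Nanos3-Cre* P1 testes, against 9.68 FPKM in P1 controls. *Fmo2*, a monooxygenase gene, averaged 23.9 FPKM in *Dhh-Cre* P3 testes, against 10.2 FPKM in P3 controls, and 5.68 FPKM in *Nanos3-Cre* P1 testes, against 3.35 FPKM in P1 controls. Among the members, *Igfbp3* was the nearest to *Igfbp2*, at rank 76 of 5093 genes and a distance of 1.59.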
